A study of Homo sapiens with 6 samples.

Results

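The mitochondrial genome of H69AR cells was examined gene by gene in libraries made with and without Supinoxin. H69AR, an established line of small cell lung cancer, was derived from NCI-H69 by doxorubicin selection, and it serves here as a model of chemoresistant disease that rests on 1 line. Supinoxin (RX-5902) is a compound reported to act through the RNA helicase DDX5, and the title of the series ties its action to mitochondrial respiration. The treated group was H69AR given 70 nM Supinoxin and the untreated group was H69AR without it, with 3 libraries in each, and the labels mark both groups as wild type. Cells of both groups grew in RPMI-1640 medium supplied with 20% fetal bovine serum, and the protocol describes them as confluent. The sources used here do not give the length of the treatment or any vehicle for the untreated cells. Members were all genes that GENCODE places on the mitochondrial chromosome, which came to 37 of the 60605 gene identifiers in the table. They comprise 13 mRNA genes, 2 rRNA genes and 22 tRNA genes.

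Human mitochondrial DNA is a small circle without introns, present in many copies per cell. Both of its strands are copied by the mitochondrial RNA polymerase from promoters in the noncoding control region into long RNAs that each span many genes. Most genes are copied from the heavy strand, while MT-ND6 and a minority of tRNA genes are copied from the light strand. The tRNAs lie between the other genes, and their excision releases the mRNAs and rRNAs. The mRNAs encode subunits of complexes I, III, IV and V of the respiratory chain, and the rRNAs and tRNAs serve the mitochondrial ribosome that translates them. Levels of single RNAs from 1 long precursor differ widely because they are processed, stabilised and degraded separately.

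In the GRCh38 annotation the 12 mRNA genes, both rRNA genes and 14 tRNA genes copied from the heavy strand lie on the plus strand, and MT-ND6 and 8 tRNA genes copied from the light strand lie on the minus strand. The annotated genes cover 15358 of the 16569 bases, and many neighbours touch or overlap. Total counts per library ran from 30136963 to 39402804, of which 1046623 to 1593207 fell on mitochondrial genes. The sources used here do not say whether the counting used strand, so reads from a gene and from the antisense RNA opposite it could not be told apart. Reads that lie on 2 overlapping genes and reads too long for a tRNA gene can be lost or assigned either way, so the level of a short gene is a level of counted fragments and not of mature RNA.

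4 stretches of the genome are shown where genes described below overlap or lie close together (hg38 chrM, read 5′ to 3′). The first is the minus strand of chrM:5657-5826, which runs from MT-TC to MT-TN, the tRNA genes with the steepest falls among those tested. Its capitals mark the spacer between them at chrM:5730-5760, the origin at which light-strand synthesis starts during replication.
MT-TC to MT-TN: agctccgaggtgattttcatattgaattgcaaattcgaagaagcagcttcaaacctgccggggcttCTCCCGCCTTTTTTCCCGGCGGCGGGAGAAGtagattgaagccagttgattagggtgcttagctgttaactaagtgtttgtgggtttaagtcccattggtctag
The spacer has 31 bases and a GC content of 67.7%, against 44.4% for the whole circle. The next 2 are plus-strand stretches where a pair of mRNA genes overlap, at chrM:8507-8592 and chrM:10740-10786, and their capitals mark the bases that belong to both genes.
MT-ATP8 into MT-ATP6: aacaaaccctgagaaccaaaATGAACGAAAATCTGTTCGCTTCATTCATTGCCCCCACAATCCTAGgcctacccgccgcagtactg
MT-ND4L into MT-ND4: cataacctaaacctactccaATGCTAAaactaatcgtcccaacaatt
MT-ATP8 shares 46 bases with MT-ATP6, and MT-ND4L shares 7 bases with MT-ND4, and each pair is carried on 1 mRNA with 2 reading frames. The last is chrM:9187-9227, where the end of MT-ATP6 meets the start of MT-CO3 with no tRNA between them, and its capital marks the single base that belongs to both.
MT-ATP6 into MT-CO3: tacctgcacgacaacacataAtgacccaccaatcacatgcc

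Mitochondrial genes as a whole took a larger share of the counts with Supinoxin. The share was 3.65%, 4.21% and 4.56% in Supinoxin replicates 1, 2 and 3 and 2.91%, 3.56% and 3.47% in untreated replicates 1, 2 and 3. The groups did not overlap, with means of 4.14% ± 0.457 and 3.31% ± 0.354 (SD, n = 3 each; exact two-sided permutation test, p = 0.10). With 3 libraries against 3, 0.10 is the smallest p that this exact permutation test can give. The difference in summed counts ran in opposite directions by class of RNA. The share on mRNAs was 3.75% ± 0.433 with Supinoxin and 2.77% ± 0.252 without (SD, n = 3 each; exact permutation p = 0.10), with no overlap. The share on tRNAs was 0.0133% ± 0.00136 and 0.0174% ± 0.00123 (exact permutation p = 0.10), also with no overlap. MT-TN and MT-TC held 44.4% to 46.3% of the tRNA counts with Supinoxin and 67.8% to 76.7% without. The median log2 fold change of the 19 tRNAs tested was 0.58, so the lower sum was not shared by most tRNA genes. The share on rRNAs was 0.374% ± 0.0334 and 0.526% ± 0.173 (exact permutation p = 0.20), and there the groups overlapped because untreated replicate 1, at 0.362%, lay within the Supinoxin range.

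No label says that replicates came from separate cultures, so the p-values here reflect variation among libraries, part or all of which may be technical. Untreated replicate 1 stood apart from the other untreated libraries: chi-square per degree of freedom between untreated libraries ran from 32.1 to 129, with both values over 100 involving that library, against 4.72 to 8.07 between Supinoxin libraries. Of the epithelial markers, KRT8 ran from 107 to 225 CPM, which are counts scaled to a common library size by edgeR's trimmed mean of M-values (TMM), whereas CDH1 was under 1 CPM in every library and EPCAM was at 1.06 to 1.44 CPM with Supinoxin and 9.09 to 11.5 CPM without. KRT18, also epithelial, ran from 27.7 to 51.8 CPM. Of 3 neuroendocrine markers, CHGA was at 0.115 to 0.424 CPM and SYP at 5.44 to 8.68 CPM, while INSM1 ran from 11.5 to 21.6 CPM and was lower with Supinoxin (log2 fold change -0.72; edgeR adjusted p = 0.00398). DDX5 mRNA lay between 696 and 885 CPM (edgeR adjusted p = 0.630). In RNA from whole cultures, a change in the number of mitochondrial genomes or cells and a change in RNA per genome or cell cannot be told apart.

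Of the 13 mRNAs, 8 rose and 1 fell with Supinoxin at an adjusted p under 0.05 (edgeR quasi-likelihood test, Benjamini-Hochberg over the 15947 genes tested). Among all genes tested, 23.4% rose and 25.2% fell by the same rule. The median log2 fold change of the 13 mRNAs was 0.55, against 0.00 over all genes tested. The CPM of 9 mRNAs was higher in every Supinoxin library than in any untreated library, that of 1 was lower, and 3 overlapped. Over all genes tested, 31.3% did not overlap with Supinoxin higher and 31.1% with Supinoxin lower. The median of all genes moved by 0.14 on the log2 scale with library size alone and by -0.29 when each library was scaled to its own mitochondrial mRNA. Under the latter 6 mRNAs rose and 2 fell, with MT-ND1 at 0.23 and MT-ND2 at 0.23 no longer called and MT-CO2 at -0.66 called.

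**Figure D1:**
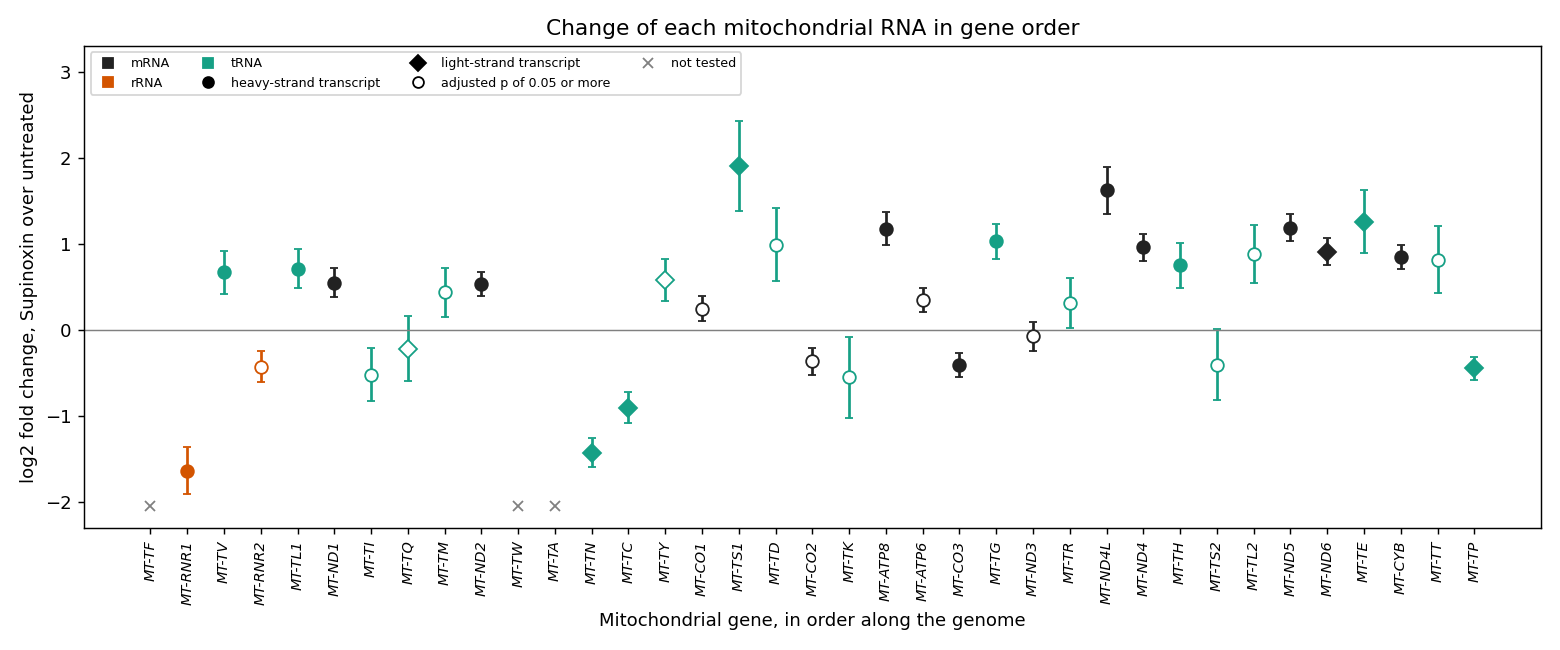
Log2 fold change of each mitochondrial RNA, Supinoxin over untreated (y axis, bars are ± 1 SE from edgeR), with the genes in order along the genome from MT-TF to MT-TP (x axis), circles for heavy-strand and diamonds for light-strand transcripts, filled where the adjusted p is under 0.05, and crosses for 3 tRNA genes not tested. Values run from -1.64 for MT-RNR1 to 1.91 for MT-TS1, with no single direction along the genome.

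By complex, the rises lay in the subunits of complexes I and III and in MT-ATP8. 6 of the 7 complex I mRNAs rose (median log2 fold change over all 7, 0.91), and MT-CYB, the 1 mitochondrial subunit of complex III, rose as well. None of the 3 complex IV mRNAs rose and 1 fell, with a median of -0.37, and the number higher was also 0 in DESeq2 and at an unadjusted p under 0.05. Of the 2 mRNAs of complex V, MT-ATP8 rose and MT-ATP6 did not pass. The shares over all genes tested were 23.4% higher and 25.2% lower, and complexes III, IV and V have too few mRNAs to be set against them.

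Among complex I mRNAs the highest fold was that of MT-ND4L (ENSG00000212907, chrM:10470-10766, plus strand), a small membrane subunit. It stood at 590.4, 871 and 889 CPM in Supinoxin replicates 1 to 3 and at 182, 368 and 214 CPM in untreated replicates 1 to 3. Every Supinoxin library lay above every untreated library, and untreated replicate 2 was the highest of its group. The means were 783 ± 167 and 254.7 ± 99.3 CPM (SD, n = 3 each), a 3.08-fold rise (log2 fold change 1.62 ± 0.27, SE; edgeR adjusted p = 0.00154).

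MT-ND4 (ENSG00000198886, chrM:10760-12137, plus strand), the core membrane subunit whose reading frame opens within MT-ND4L, stood at 4126, 5064 and 5678 CPM with Supinoxin and at 2249.7, 2773 and 2632 CPM without. The groups did not overlap, and the rise was 1.94-fold (log2 fold change 0.96 ± 0.16, SE; edgeR adjusted p = 0.00138). Both genes lie on 1 mRNA, yet per base that belongs to 1 gene only MT-ND4L was at 67.6%, 81.3% and 74.0% of the level of MT-ND4 in the Supinoxin libraries. It was at 38.2%, 62.7% and 38.5% in the untreated ones. These shares did not overlap between the groups, although untreated replicate 2 came close to Supinoxin replicate 1.

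MT-ND5 (ENSG00000198786, chrM:12337-14148, plus strand), another proton-pumping membrane subunit, stood at 1183, 1287 and 1419 CPM with Supinoxin and at 489, 683 and 536 CPM without. The Supinoxin libraries were close to each other and all above the untreated range. On the log2 scale the change was 1.19 ± 0.16 (SE; edgeR adjusted p = 0.000583), the smallest adjusted p among the mRNAs. MT-ND6 (ENSG00000198695, chrM:14149-14673, minus strand) is the 1 mRNA copied from the light strand and ends against the end of MT-ND5 on the opposite strand. It stood at 301, 307 and 359 CPM with Supinoxin and at 144, 169 and 202 CPM without. The groups did not overlap, and the log2 fold change was 0.91 ± 0.16 (SE; edgeR adjusted p = 0.00179).

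The complex I mRNAs near the start of the heavy-strand transcript changed less. MT-ND1 (ENSG00000198888, chrM:3307-4262, plus strand) stood at 1504, 2089 and 2364 CPM with Supinoxin and at 1361, 1321 and 1390.2 CPM without. MT-ND2 (ENSG00000198763, chrM:4470-5511, plus strand) stood at 1840.5, 2277 and 2447 CPM with Supinoxin and at 1530.2, 1537 and 1460.2 CPM without. In both, Supinoxin replicate 1 was the library nearest the untreated ones, which were tightly grouped. The log2 fold changes were 0.55 ± 0.17 for MT-ND1 and 0.54 ± 0.14 for MT-ND2 (SE; edgeR adjusted p = 0.0249 and 0.0119). MT-ND1 was not called when untreated replicate 2 or either of Supinoxin replicates 2 and 3 was left out (log2 fold changes 0.54, 0.52 and 0.41; edgeR adjusted p = 0.0709, 0.0891 and 0.127), nor MT-ND2 without Supinoxin replicate 2 or 3 (0.51 and 0.45; edgeR adjusted p = 0.0588 and 0.0753).

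MT-ND3 (ENSG00000198840, chrM:10059-10404, plus strand) was the complex I mRNA that did not pass. It stood at 477, 659 and 565 CPM with Supinoxin and at 707, 569 and 514 CPM without, and the groups overlapped across most of their range. Its log2 fold change was -0.07 ± 0.17 (SE; edgeR adjusted p = 0.738), and it was 0.07 without untreated replicate 1, the highest library of the 6, and 0.08 with library size alone.

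MT-CYB (ENSG00000198727, chrM:14747-15887, plus strand) encodes cytochrome b, the catalytic core subunit of complex III, and is the last mRNA of the heavy-strand transcript. It stood at 2254, 2597 and 3013 CPM with Supinoxin and at 1482, 1466 and 1424 CPM without. The untreated libraries were within a narrow range that no Supinoxin library reached. The rise was 1.80-fold (log2 fold change 0.85 ± 0.14, SE; edgeR adjusted p = 0.00147).

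The complex IV mRNAs encode the 3 core subunits of cytochrome c oxidase, of which subunits 1 and 2 hold its metal centres. MT-CO1 (ENSG00000198804, chrM:5904-7445, plus strand) stood at 9337, 11498 and 11702 CPM with Supinoxin and at 8644, 10316 and 8460.0 CPM without. The groups overlapped, since Supinoxin replicate 1 lay below untreated replicate 2, and the log2 fold change of 0.25 ± 0.14 (SE) did not pass (edgeR adjusted p = 0.184) and was -0.05 when libraries were scaled to their mitochondrial mRNA. With the trend on length and GC content removed it was 0.41 and passed (edgeR adjusted p = 0.0496, in a range over alternatives of 0.0496 to 0.849). MT-CO2 (ENSG00000198712, chrM:7586-8269, plus strand) stood at 2884, 3506 and 3778 CPM with Supinoxin and at 4960.4, 4400.2 and 3755 CPM without. Here untreated replicate 3 lay just below Supinoxin replicate 3, and the log2 fold change of -0.37 ± 0.16 (SE) did not pass (edgeR adjusted p = 0.0777), although it did without untreated replicate 3 (-0.47; edgeR adjusted p = 0.0382, in a range over alternatives of 0.00168 to 0.296).

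MT-CO3 (ENSG00000198938, chrM:9207-9990, plus strand) stood at 2968, 3114 and 3690.1 CPM with Supinoxin and at 4657, 4428 and 3885 CPM without. It was the 1 mRNA whose untreated libraries were all above the Supinoxin libraries. The log2 fold change was -0.41 ± 0.14 (SE; edgeR adjusted p = 0.0363). That call was lost without Supinoxin replicate 1, 2 or 3 or without untreated replicate 2 (log2 fold changes -0.34, -0.37, -0.50 and -0.38), and with library size alone it was also lost, at -0.27. The adjusted p over its alternatives ran from 0.000872 to 0.167.

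The complex V mRNAs encode subunit a of the ATP synthase membrane sector, which conducts protons (MT-ATP6), and a small accessory subunit (MT-ATP8). MT-ATP8 (ENSG00000228253, chrM:8366-8572, plus strand) stood at 38.95, 46.4 and 48.1 CPM with Supinoxin and at 15.4, 25.4 and 18.2 CPM without. MT-ATP6 (ENSG00000198899, chrM:8527-9207, plus strand) stood at 3249.7, 3411 and 3899 CPM with Supinoxin and at 3101, 2659 and 2525 CPM without. Neither gene's groups overlapped, but untreated replicate 1 was the lowest of all libraries for MT-ATP8 and the highest untreated one for MT-ATP6.

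MT-ATP8 rose by a log2 fold change 1.18 ± 0.19 (SE; edgeR adjusted p = 0.00135). MT-ATP6 had a log2 fold change of 0.35 ± 0.14 (SE) that did not pass (edgeR adjusted p = 0.0609) and that passed without untreated replicate 1 (0.45; edgeR adjusted p = 0.00267, in a range over alternatives of 0.00267 to 0.833). The pair is carried on 1 mRNA, but per base that belongs to 1 gene only the level of MT-ATP8 was 4.72%, 5.36% and 4.86% of that of MT-ATP6 with Supinoxin and 1.95%, 3.76% and 2.84% without. MT-ATP8 therefore had far fewer counts per base than its partner in every library. The sources used here do not state how reads on the 46 shared bases were handled. The part of that handling in the share was not tested.

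**Figure D2:**
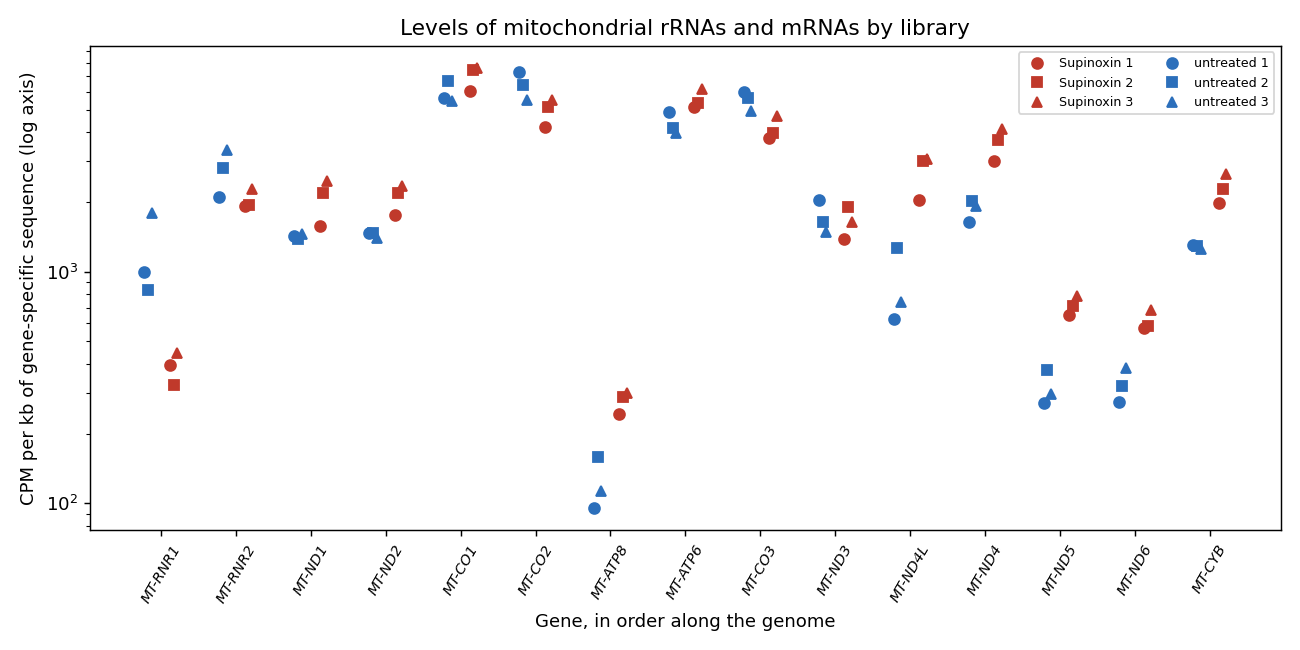
CPM per kb of sequence that belongs to 1 gene only (y axis, log scale) for the rRNAs and mRNAs in gene order (x axis), with 1 point per library and the shape giving the replicate number. Supinoxin points lie below all untreated ones for MT-RNR1 and MT-CO3 and above all of them for 9 mRNAs, from MT-ND1 to MT-CYB.

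Levels of different mRNAs were compared per kb of gene-specific sequence. In untreated cells the order of the mean levels began with MT-CO2 at 6392 ± 881, MT-CO1 at 5927 ± 663, MT-CO3 at 5521 ± 506 and MT-ATP6 at 4356 ± 475 CPM per kb (SD, n = 3). Neighbours in that order did not differ by more than their SDs up to MT-CO3, and a wide gap separated MT-ATP6 from MT-ND4 at 1861 ± 197 CPM per kb. The lowest were MT-ND6 at 327 ± 55.5, MT-ND5 at 314 ± 55.9 and MT-ATP8 at 122 ± 32.1 CPM per kb.

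With Supinoxin the same quantity began with MT-CO1 at 7033 ± 850.0, MT-ATP6 at 5552 ± 533, MT-CO2 at 4955 ± 669.8, MT-CO3 at 4160.2 ± 487 and MT-ND4 at 3615 ± 570.0 CPM per kb (SD, n = 3). MT-CO2 thus went from rank 1 to rank 3, and MT-ND4L from rank 10 to rank 6 at 2702 ± 577 CPM per kb. MT-ND4 kept rank 5 but stood much nearer to MT-CO3 than without the compound. Across the 12 heavy-strand mRNAs the Spearman correlation of the log2 fold change with the untreated CPM was -0.74, a description over 12 genes measured in the same 6 libraries, in which the untreated level enters both quantities. The same correlation was 0.05 with gene length, -0.29 with GC content and 0.41 with order along the genome.

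The 12 heavy-strand mRNAs were then split by gene order into the 6 nearest the promoters, MT-ND1 to MT-ATP6, and the 6 farthest, MT-CO3 to MT-CYB. Of the first 6, 3 rose and none fell in edgeR or DESeq2 (1 was lower at an unadjusted p under 0.05), with a median log2 fold change of 0.44. Of the last 6, 4 rose and 1 fell, with a median of 0.90. Among all genes tested 23.4% rose and 25.2% fell, and 3 and 4 of 6 are too close to set the parts apart. The log2 ratio of summed counts, distal over proximal, was -0.70, -0.75 and -0.67 with Supinoxin and -1.01, -0.98 and -0.94 without. These values were tight in each group and did not overlap, a difference of 0.27 (exact permutation p = 0.10, the smallest possible). The change was no steady slope along the transcript, because MT-CO3 and MT-ND3, which fell and did not pass, lie between MT-ATP8 and MT-ND4L, which rose.

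Neighbouring mRNAs were also compared as a ratio of levels per kb, which does not depend on the scaling of libraries. Of the 12 pairs of neighbours, 9 had ratios that did not overlap between the groups, 4 higher with Supinoxin and 5 lower. For the CPM of single genes, 31.3% of all genes tested did not overlap with Supinoxin higher and 31.1% with Supinoxin lower. Ratios of neighbouring nuclear genes were not computed, so 9 of 12 is not shown to be particular to mitochondrial genes. Each of these 9 had an exact permutation p of 0.10, or 0.133 after Benjamini-Hochberg adjustment over the 12 pairs. The widest difference was at MT-ND4L over MT-ND3, whose log2 ratio was 0.56, 0.66 and 0.91 with Supinoxin and -1.70, -0.37 and -1.01 without.

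At the junction that has no tRNA, MT-CO3 over MT-ATP6, the log2 ratio was -0.44, -0.44 and -0.38 with Supinoxin and 0.28, 0.43 and 0.32 without. All 6 libraries thus placed MT-CO3 below its neighbour with the compound and above it without, a difference of -0.76 (exact permutation p = 0.10). At MT-ND2 over MT-ND1 the mean log2 ratio differed by 0.00 and the groups overlapped (exact permutation p = 1.00). MT-CYB over MT-ND6 likewise overlapped, with a difference of -0.08 (exact permutation p = 0.70).

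Of the 2 rRNAs, 1 fell and the other did not pass, while most mRNAs rose. MT-RNR1 (ENSG00000211459, chrM:648-1601, plus strand), the 12S rRNA of the small mitochondrial ribosomal subunit, stood at 378, 310.1 and 424 CPM in Supinoxin replicates 1 to 3. In untreated replicates 1 to 3 it stood at 951, 792 and 1718 CPM. All untreated libraries were above the Supinoxin libraries, and untreated replicate 3 was by far the highest. The fall was 3.11-fold, a log2 fold change -1.64 ± 0.27 (SE; edgeR adjusted p = 0.00154), and without untreated replicate 3 it was -1.24 (edgeR adjusted p = 0.00160, in a range over alternatives of 4.0e-19 to 0.00892).

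MT-RNR2 (ENSG00000210082, chrM:1671-3229, plus strand), the 16S rRNA of the large subunit, stood at 2995, 3035 and 3553 CPM with Supinoxin and at 3268, 4376 and 5227 CPM without. Untreated replicate 1 lay inside the Supinoxin range and the other untreated libraries above it. The log2 fold change of -0.43 ± 0.18 (SE) did not pass (edgeR adjusted p = 0.0753), and without untreated replicate 1 it was -0.58 and passed (edgeR adjusted p = 0.00104, in a range over alternatives of 0.000522 to 0.236). The log2 ratio of MT-RNR1 to MT-RNR2 was -2.99, -3.29 and -3.07 with Supinoxin and -1.78, -2.47 and -1.61 without. The ratio therefore fell in every Supinoxin library below the whole untreated range, a difference of -1.16 (exact permutation p = 0.10), although both rRNAs come from the same precursor with 1 tRNA gene, MT-TV, between them.

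The log2 ratio of both rRNAs to the 13 mRNAs was -3.32 ± 0.134 with Supinoxin and -2.45 ± 0.437 without (SD, n = 3 each), a difference of -0.88 (exact permutation p = 0.10), and did not overlap. Total RNA was the labelled material, and the sources used here do not say whether ribosomal RNA was removed or poly(A) RNA selected before library construction. Such a step acts on these 2 RNAs, and its part in the result was not tested.

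**Figure D3:**
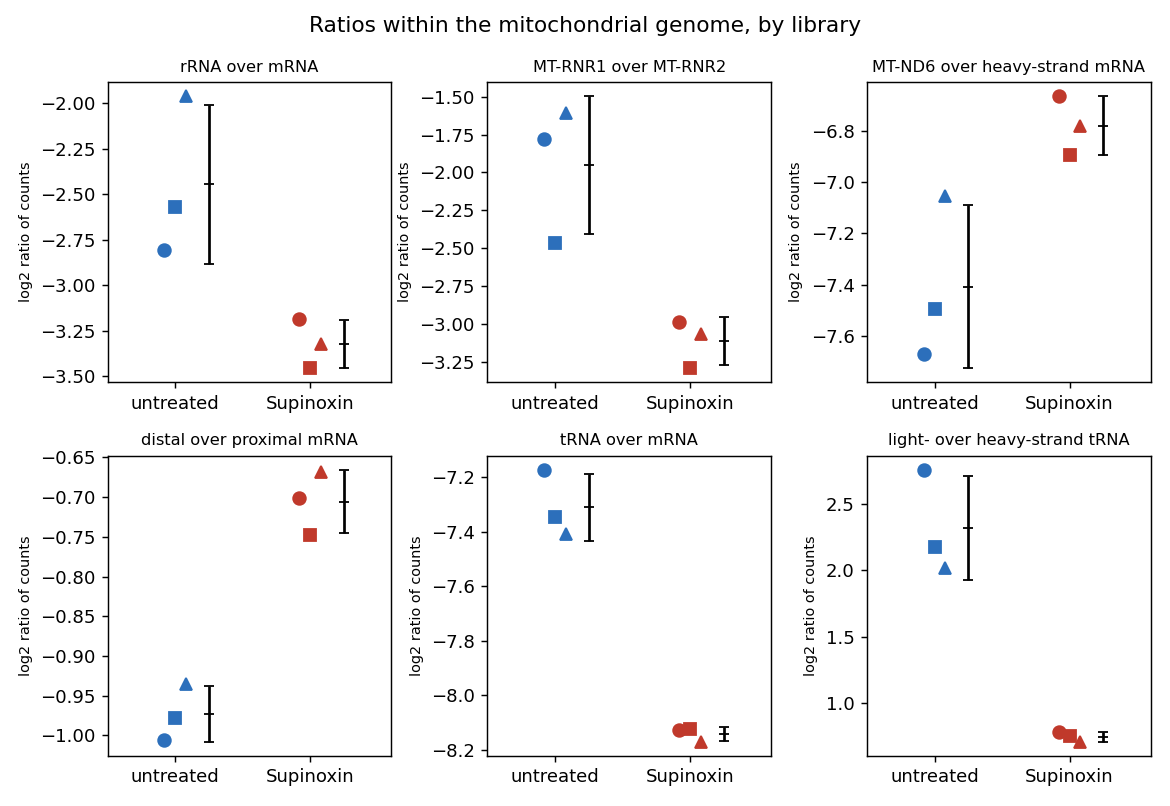
Log2 ratios of summed counts within the mitochondrial genome (y axes) in each library (points; circle, square and triangle for replicates 1, 2 and 3), with the mean ± SD of 3 libraries per group beside them. In all 6 ratios the groups do not overlap, and the spread is wider without Supinoxin in 5 of them.

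Counts over tRNA genes were scarce, at 4210 to 6909 per library for all 22. Of these, 19 had enough counts to be tested, 6 of which rose and 3 fell, against 23.4% and 25.2% of all genes tested, and the 3 not tested were MT-TF, MT-TW and MT-TA. All 3 that fell are copied from the light strand. When a trend of the counts on gene length and GC content was removed from each library, no tRNA rose in edgeR (1 was higher at an unadjusted p under 0.05). With that trend removed 6 fell, of which 3 are copied from the heavy strand. By that setting 4249 of all 15947 genes tested rose and 4779 fell, so 6 of 19 is near the share of all genes. That step turned the direction of MT-TV, MT-TM, MT-TY, MT-TR and MT-TH and left that of the other tested tRNAs as it was. MT-TN and MT-TC kept their direction and their call under all 15 alternatives tried.

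MT-TN (ENSG00000210135, chrM:5657-5729, minus strand), which carries asparagine, stood at 24.2, 30.2 and 33.0 CPM with Supinoxin and at 92.4, 76.3 and 66.6 CPM without. MT-TC (ENSG00000210140, chrM:5761-5826, minus strand), which carries cysteine and lies on the other side of the origin printed above, stood at 24.7, 30.8 and 29.97 CPM with Supinoxin and at 64.5, 54.1 and 41.1 CPM without. The groups did not overlap for either gene, and in both the untreated libraries descended in the same order. MT-TN fell 2.69-fold and MT-TC 1.87-fold (log2 fold changes -1.43 ± 0.17 and -0.90 ± 0.18, SE; edgeR adjusted p = 0.000336 and 0.00324).

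Together these 2 genes held 44.4%, 46.3% and 45.5% of all tRNA counts with Supinoxin and 76.7%, 69.2% and 67.8% without. Of their nearest neighbours on the same strand, 1 was too scarce to test and 1 did not pass. MT-TA (ENSG00000210127, minus strand), for alanine, had 31 counts in all libraries together and was not tested. MT-TY (ENSG00000210144, minus strand), for tyrosine, which overlaps MT-TC by its last annotated base, stood at 5.99, 8.43 and 8.31 CPM with Supinoxin and at 4.56, 6.88 and 3.75 CPM without (log2 fold change 0.58 ± 0.25, SE; edgeR adjusted p = 0.0781).

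The log2 ratio of light-strand to heavy-strand tRNA counts was 0.78, 0.75 and 0.70 with Supinoxin and 2.76, 2.17 and 2.02 without, a difference of -1.57 with no overlap (exact permutation p = 0.10). Without MT-TN and MT-TC the difference was -0.62 (exact permutation p = 0.10), and with the mean of log2 counts of single genes in place of sums it was -0.16 (exact permutation p = 0.40). For mRNAs the strands went the other way: the log2 ratio of MT-ND6 to the 12 heavy-strand mRNAs was -6.66, -6.89 and -6.78 with Supinoxin and -7.67, -7.50 and -7.05 without. That difference of 0.63 had no overlap (exact permutation p = 0.10). Counts over light-strand genes therefore did not move as 1 group. With the strand setting unknown, these counts may include RNA from the opposite strand.

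The third light-strand tRNA that fell was MT-TP (ENSG00000210196, chrM:15956-16023, minus strand), for proline, the first tRNA of the light-strand transcript. It stood at 11.7, 10.2 and 11.04 CPM with Supinoxin and at 15.5, 15.4 and 13.95 CPM without, and the groups did not overlap. The log2 fold change was -0.45 ± 0.14 (SE; edgeR adjusted p = 0.0225), and the call was lost without Supinoxin replicate 1, 2 or 3 or untreated replicate 2 (adjusted p over alternatives of 0.000729 to 0.126).

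The light-strand tRNAs that rose had far fewer counts. MT-TS1 (ENSG00000210151, chrM:7446-7514, minus strand), for serine, lies opposite the heavy-strand transcript just after MT-CO1 and had 43, 34 and 38 counts with Supinoxin and 2, 18 and 7 without. Its log2 fold change was 1.91 ± 0.52 (SE; edgeR adjusted p = 0.0145), and 2.84 without untreated replicate 2. MT-TE (ENSG00000210194, chrM:14674-14742, minus strand), for glutamate, had 56, 50 and 56 counts with Supinoxin and 13, 15 and 31 without. Its log2 fold change was 1.26 ± 0.37 (SE; edgeR adjusted p = 0.0195), and 1.81 without untreated replicate 3; the call was lost without Supinoxin replicate 1 or 3 or untreated replicate 2 (log2 fold changes 1.25, 1.21 and 1.07). Neither gene's groups overlapped. MT-TQ (ENSG00000210107, chrM:4329-4400, minus strand), for glutamine, had a log2 fold change -0.22 ± 0.38 (SE; edgeR adjusted p = 0.657) and its groups overlapped.

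Among the heavy-strand tRNAs 4 rose and none fell of 12 tested in edgeR and in DESeq2, with a median log2 fold change of 0.69, and the number lower at an unadjusted p under 0.05 was 0 as well. The share that rose is near the 23.4% of all genes tested. With the length and GC trend removed 0 rose and 3 fell, against 4249 and 4779 of all 15947 genes tested. The most abundant, MT-TL1 (ENSG00000209082, chrM:3230-3304, plus strand), for leucine, lies between MT-RNR2 and MT-ND1, and its sequence is shown as the tRNA best measured on that strand.
MT-TL1: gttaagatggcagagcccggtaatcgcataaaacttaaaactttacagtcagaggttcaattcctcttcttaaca
It stood at 19.2, 27.1 and 32.5 CPM with Supinoxin and at 12.1, 19.4 and 16.6 CPM without. The groups overlapped narrowly, between Supinoxin replicate 1 and untreated replicate 2. Its log2 fold change was 0.71 ± 0.23 (SE; edgeR adjusted p = 0.0277), and the call was lost without Supinoxin replicate 2 or 3 or untreated replicate 3 (0.69, 0.53 and 0.74).

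MT-TG (ENSG00000210164, chrM:9991-10058, plus strand), for glycine, lies between MT-CO3, which fell, and MT-ND3, which did not pass. It had 153, 187 and 137 counts with Supinoxin and 80, 71 and 56 without. The groups did not overlap, and the log2 fold change was 1.03 ± 0.20 (SE; edgeR adjusted p = 0.00305), a call that was kept when any 1 library was left out.

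MT-TH (ENSG00000210176, chrM:12138-12206, plus strand), for histidine and just after MT-ND4, stood at 6.38, 6.21 and 5.60 CPM with Supinoxin and at 5.33, 2.87 and 2.61 CPM without. Its groups were close but did not overlap, and its log2 fold change was 0.75 ± 0.27 (SE; edgeR adjusted p = 0.0415). The call was lost without any 1 library except untreated replicate 1, with log2 fold changes of 0.56 to 0.81, and without that library the fold change was 1.15. MT-TV (ENSG00000210077, chrM:1602-1670, plus strand), for valine, had 51, 68 and 60 counts with Supinoxin and 30, 41 and 29 without (log2 fold change 0.67 ± 0.25, SE; edgeR adjusted p = 0.0499). That call was lost without any 1 library except untreated replicate 2 and in DESeq2 (adjusted p over alternatives of 0.0313 to 0.889).

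The other 8 heavy-strand tRNAs tested did not pass. MT-TD, for aspartate, had 82, 94 and 77 counts with Supinoxin and 13, 65 and 35 without, which did not overlap, and its log2 fold change 0.99 ± 0.43 (SE; edgeR adjusted p = 0.0815) became 1.58 and passed without untreated replicate 2. MT-TL2 and MT-TT, the second leucine tRNA and that for threonine, had log2 fold changes of 0.88 ± 0.33 and 0.81 ± 0.39 (SE; edgeR adjusted p = 0.0534 and 0.109), also without overlap.

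The remaining tested heavy-strand tRNAs overlapped between the groups. MT-TM for methionine and MT-TR for arginine had log2 fold changes of 0.43 ± 0.28 and 0.31 ± 0.29 (SE). MT-TI for isoleucine, MT-TK for lysine and MT-TS2 for serine had log2 fold changes of -0.52 ± 0.31, -0.55 ± 0.48 and -0.40 ± 0.41 (SE). MT-TI passed without untreated replicate 1, at -0.76 (edgeR adjusted p = 0.0259, in a range over alternatives of 0.00209 to 0.608). MT-TF, the phenylalanine tRNA that opens the heavy-strand transcript, had 6, 9 and 6 counts with Supinoxin and 10, 13 and 29 without, and was too scarce to test, although its groups did not overlap.

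**Figure D4:**
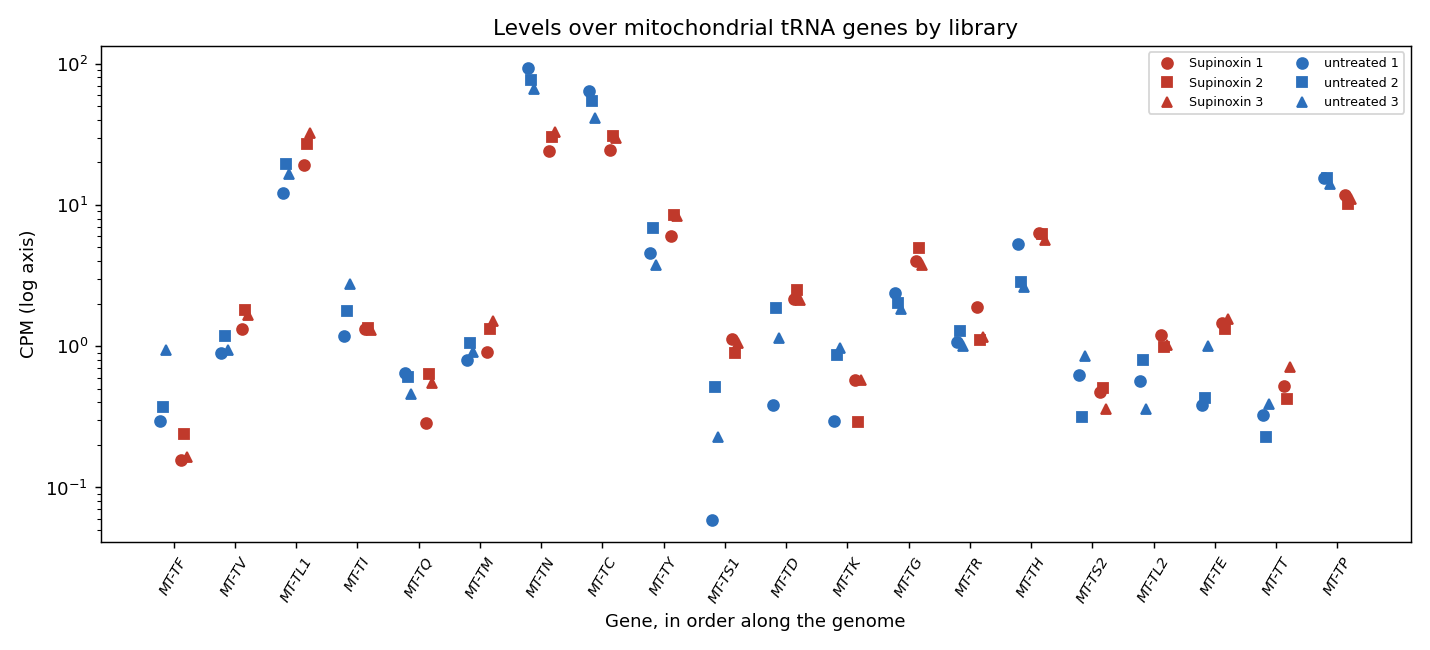
CPM over 20 tRNA genes with at least 60 counts in total (y axis, log scale), in gene order (x axis), with 1 point per library. MT-TN and MT-TC are the highest in untreated cells, at 41.1 to 92.4 CPM. With Supinoxin they lie at 24.2 to 33.0 CPM, near MT-TL1 at 19.2 to 32.5 CPM.

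Nuclear copies of mitochondrial sequence were mapped because they can take or remove reads. Windows of 100 bases within each gene, or around the whole gene for the shorter tRNA genes, were searched for exact copies elsewhere in GRCh38. Exact copies covered 100% of the windows of MT-TN, 90.3% of those of MT-TK, 37.9% of MT-TQ and 21.9% of MT-TA and of MT-TS1. They covered 27.9% of the windows of MT-CO1, 26.1% of MT-ND2, 21.2% of MT-RNR1, 11.9% of MT-ATP6, 10.97% of MT-ND1, 4.67% of MT-CO3 and 2.39% of MT-CO2. No window of MT-RNR2, MT-TC, MT-ATP8 or any mRNA gene from MT-ND3 to MT-CYB had one.

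Most exact copies lay in 1 block on chromosome 1 (chr1:629062-634922), whose 7 annotated pseudogenes had 0 counts in all libraries. Among 404 identifiers for mitochondrial pseudogenes 25 had any count, and the largest total over 6 libraries was 43. Reads that fit both the mitochondrial and a nuclear site were thus not counted on those pseudogenes, and the sources used here do not say whether they were kept for the mitochondrial gene or dropped. Across the 12 heavy-strand mRNAs the Spearman correlation of the log2 fold change with the share of windows that have a copy was -0.54, a description over genes from the same 6 libraries, and its part in the differences between genes was not tested.

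The mitochondrial mRNAs were set against the nuclear genes for the same complexes. Nuclear subunits fell in 28 of 31 tested for complex I, 8 of 8 for complex III, 9 of 10 for complex IV and 13 of 13 for complex V, against 25.2% of all genes tested. None rose in edgeR or DESeq2, also at an unadjusted p under 0.05. With the length and GC trend removed, 1 of the 31 for complex I rose. Their median log2 fold changes were -1.06, -1.18, -1.27 and -1.06. The log2 ratio of mitochondrial to nuclear counts for complex I was 2.38, 2.61 and 2.80 with Supinoxin and 0.31, 1.19 and 0.99 without. For complex III it was 1.53, 1.63 and 1.86 with Supinoxin and -0.67, 0.04 and -0.06 without.

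For complex IV, where no mitochondrial mRNA rose, the ratio was 4.25, 4.40 and 4.50 with Supinoxin and 2.79, 3.59 and 3.104 without. For complex V it was 0.71, 0.70 and 0.89 with Supinoxin and -0.61, -0.45 and -0.55 without. In each complex every Supinoxin library lay above every untreated one, with differences of 1.77, 1.91, 1.22 and 1.30 on the log2 scale for complexes I, III, IV and V (exact permutation p = 0.10 each, the smallest possible). Untreated replicate 1 had the lowest ratio in all 4, and without it the difference for complex I was 1.505.

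**Figure D5:**
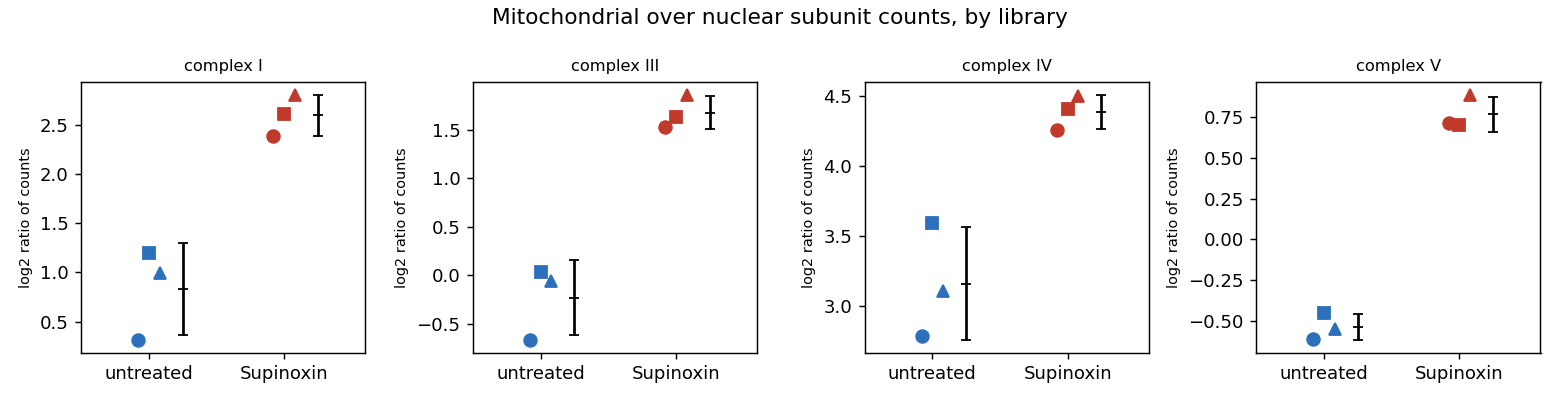
Log2 ratio of counts on mitochondrial subunit mRNAs to counts on nuclear subunit mRNAs (y axes) for complexes I, III, IV and V, with 1 point per library and the mean ± SD of 3 libraries per group. The Supinoxin libraries lie above all untreated libraries in each complex, and untreated replicate 1 (circle) is the lowest.

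Nuclear genes that make, process and degrade mitochondrial RNA were read from the same fit, in lists drawn up with earlier results of these data known. Over all genes tested 23.4% rose and 25.2% fell, and in the main fit the numbers that fell for transcription, RNA processing and DNA maintenance lie near that share. With the length and GC trend removed, 7 of 10 tested for RNA processing and 8 of 9 for RNA stability fell. By that setting 2 of 9 for transcription and 3 of 10 for DNA maintenance fell. Lower calls over all genes were then 4779, against 4018 in the main fit. None of the 9 genes for mitochondrial transcription rose and 3 fell, with a median log2 fold change of -0.23. For transcription, RNA processing and RNA stability the number higher was 0 in edgeR and DESeq2, also at an unadjusted p under 0.05, and 2 of those for transcription rose with the length and GC trend removed. TFAM, which packages mitochondrial DNA and opens its promoters, stood at 70.0, 64.1 and 64.4 CPM with Supinoxin and at 90.2, 94.9 and 110.4 CPM without, a log2 fold change -0.57 ± 0.13 (SE; edgeR adjusted p = 0.00563). The groups did not overlap. POLRMT, the mitochondrial RNA polymerase, had a log2 fold change -0.23 ± 0.24 (SE; edgeR adjusted p = 0.445), with untreated replicate 1 at 452 CPM and the other 5 libraries at 219 to 278 CPM, and it was 0.13 without that library (edgeR adjusted p = 0.319). MTERF3, of the mitochondrial transcription termination factor family, fell with a log2 fold change of -0.49 (edgeR adjusted p = 0.0116).

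Of 14 genes listed for RNA processing, 10 were tested, 3 fell and none rose, against 25.2% and 23.4% of all genes tested. HSD17B10 and TRMT10C, subunits of the RNase P that cuts the 5′ ends of mitochondrial tRNAs, fell with log2 fold changes of -1.19 and -0.65 (edgeR adjusted p = 0.00201 and 0.00292). Of 9 genes for RNA stability and decay, 4 fell and none rose, against 25.2% and 23.4% of all genes tested. LRPPRC and SLIRP, the partners that bind and stabilise mitochondrial mRNAs, fell with log2 fold changes of -0.51 and -0.78 (edgeR adjusted p = 0.0115 and 0.00430), and REXO2, an exonuclease that degrades short RNA, was 2.01-fold lower (edgeR adjusted p = 0.000987). Of 12 genes for mitochondrial DNA maintenance, 10 were tested, 2 rose and 3 fell, against 23.4% and 25.2% of all genes tested. POLG2, the accessory subunit of the mitochondrial DNA polymerase, rose with a log2 fold change of 0.72, and DGUOK, a mitochondrial deoxynucleoside kinase, fell with -0.85 (edgeR adjusted p = 0.00160 and 0.00134). The calls of these 9 genes held without untreated replicate 1.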

How the data were processed

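RNA of 6 H69AR samples, 3 with Supinoxin and 3 without, was sequenced. What the authors deposited is raw counts, whole numbers for each gene in each library. Columns whose names hold WT were read as untreated, since the others name Supinoxin. The submitters' processing notes list GRCh38 and the tools edgeR, DESeq2, featureCounts, STAR, fastp and Trim Galore 0.4.4. The sources used here do not give the annotation release, the strand setting, the RNA selection or the handling of multi-mapping and overlapping reads. Of 60605 identifiers, 60463 matched GENCODE 44, which supplied symbols and GRCh38 positions, and sequences were read from the hg38 genome.

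Counts were tested with edgeR 4.0.16 in R 4.3.3 (TMM scaling, filterByExpr, robust quasi-likelihood fit, treatment as the single term, two-sided, Benjamini-Hochberg over 15947 genes, threshold 0.05). 1 CPM stands for 30.7 to 38.2 counts. CPM per kb used bases that belong to 1 gene only. Shares and log2 ratios of summed counts (0.5 added) were compared with exact two-sided permutation tests over libraries (Python 3.11.15, scipy 1.17.1, numpy 2.4.6), and figures used matplotlib 3.10.9. Scripts were tested on simulated data. Alternatives were other scalings, filters, DESeq2 1.42.0, a replicate block, a length and GC offset and leaving out each library. The 100-base copy search, the markers of the line, the ratio of the 2 rRNAs and the tRNA ratio without MT-TN and MT-TC were added after seeing the data. Described genes were all mRNAs and rRNAs and the tRNAs with at least 60 counts; MT-TA is given besides because it neighbours MT-TN. From each nuclear list the 2 members with the smallest p were described, with POLRMT, TFAM, LRPPRC and SLIRP. The members and lists were chosen with earlier results of these data known.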

Additional observations from a re-analysis of the deposited data

How the results depend on the processing

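All shares, ratios of RNA classes, strands and gene order, and ratios to nuclear subunits kept their direction under each alternative run. Leaving out MT-TN and MT-TC was run for the light-strand to heavy-strand tRNA ratio only. The tRNA share and the tRNA to mRNA ratio were not tested that way. With the mean of log2 counts of single genes in place of sums, the difference in the light-strand to heavy-strand tRNA ratio was -0.16 (exact permutation p = 0.40), that in the tRNA to mRNA ratio -0.30 and that in the ratio of MT-ND6 to heavy-strand mRNAs 0.36 (exact permutation p = 0.20 each). The number of mRNAs that fell, 1 in the main fit, was 0 with library size alone, with every gene with a count, with the replicate block and with the length and GC offset, 2 with scaling to mitochondrial mRNA, and 0 to 2 without 1 library. The number of mRNAs that rose was 6 to 10. The number of tRNAs that rose was 3 with scaling to mitochondrial mRNA, 0 with the length and GC offset and 2 to 7 without 1 library. The number that fell was 6 with the length and GC offset and 2 to 5 without 1 library. With that offset 4779 of all genes fell, against 4018 in the main fit. Over all genes, scaling to mitochondrial mRNA gave 1866 higher and 5543 lower calls, or 25.2% higher among calls, against 3732 and 4018, or 48.1% higher. The direction turned under the length and GC offset for MT-TV (-0.045), MT-TM (-0.30), MT-TY (-0.17), MT-TR (-0.36) and MT-TH (-0.0081), under scaling to mitochondrial mRNA for MT-CO1 (-0.049) and under library size alone for MT-ND3 (0.077). Without 1 library MT-ND3 ran from -0.191 to 0.0742, MT-TQ from -0.4425 to 0.0602, the MT-ND2 to MT-ND1 ratio from -0.0658 to 0.0549 and the MT-CYB to MT-ND6 ratio from -0.223 to 0.0508. The cause of these changes was not tested. Groups share replicate numbers, but no label says that the numbers pair libraries. Same-numbered libraries deviated with correlations of -0.13, -0.04 and -0.03, and other combinations with -0.11 to 0.14. Correlations this weak, from 3 libraries per group, cannot tell whether the numbers pair libraries. With the replicate block, 8 mRNAs rose and none fell, 7 tRNAs rose and 2 fell, and the difference in the share of counts on the mitochondrial genome was 0.823 percentage points (exact sign-flip p = 0.25, the smallest possible). Depth limits the tRNA genes most: MT-TA had 31 counts in all libraries together and MT-TN 11088.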
